A study of Mus musculus with 6 samples.

Results

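The genes described here encode sodium, potassium and pacemaker channels of the heart with 1 of their anchors, and they were taken by name from a table of gene expression in newborn mouse hearts. All 27 named genes were found among the 56748 genes of the table. Expression was given as FPKM (fragments scaled by gene length and library size, so that levels can be set side by side between genes) for 3 cKo and 3 FF libraries. The cKo hearts carried a Kdm5b knockout that the labels call cardiac-specific, and the FF hearts, from Flox mice of genotype FF, are the Kdm5b controls by the design text. Hearts of both groups were taken at postnatal day 1 and snap frozen. The sources used here do not give the Cre driver, whether the cKo mice carry the FF alleles, the sex, or whether each sample was 1 animal, so the p-values cover only how these samples vary, which may be technical. The Kdm5b enzyme removes methyl groups from lysine 4 of histone H3, where methylation marks promoters.

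Heartbeats are shaped by these channels in sequence. Pacemaker channels of the HCN family let the membrane drift towards threshold, sodium channels give the upstroke, and potassium channels bring the membrane back and hold it at rest. In mice the transient outward and ultrarapid potassium currents carry most of adult repolarization, and many of the genes are still changing their level around birth.

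The libraries held 15658893 to 20339926 reads. FF replicate 3 stood apart: it correlated with each other library at 0.880 to 0.909 over genes, while pairs of the rest reached 0.954 to 0.984. Transcripts of thymocytes, summed over 12 markers, came to 0.429 to 1.42 FPKM in cKo hearts and to 0.724, 1.71 and 289 FPKM in FF replicates 2, 1 and 3. Each log2 difference of a channel gene is therefore given with and without FF replicate 3. Markers of cardiomyocytes were high in every library, with 8 markers summing to 5060 to 5916 FPKM in cKo and 4615 to 5389 FPKM in FF hearts. Taken singly, 4 of the 8 (Actn2, Ttn, Ryr2 and Ldb3) were higher and 1 (Tnni3) was lower in all cKo than in all FF libraries. Of all genes with a mean of at least 1 FPKM, 28.0% had groups that did not overlap. Markers of the atria differed widely between libraries of the same group, with sums over 8 markers of 584 to 1583 FPKM in cKo hearts and of 159, 631 and 1886 FPKM in FF replicates 1, 2 and 3. Kdm5b itself had 2.80, 3.03 and 2.75 FPKM in cKo hearts, against 3.19, 3.25 and 3.92 FPKM in FF hearts, and did not pass the test (limma adjusted p = 0.447). These are whole hearts, where fewer cells of a type and less RNA per cell cannot be told apart.

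Of the 27 genes, 23 had a mean of at least 1 FPKM and were tested within a limma fit of all 12678 such genes, and none of them passed an adjusted p of 0.05 (Benjamini-Hochberg) with all 6 libraries. The background was low too, with 0.166% of all tested genes called. Before adjustment 2 of the 23 had a p under 0.05, Hcn2 and Kcne1, both lower in cKo, against 17.9% of all tested genes. Without FF replicate 3, Hcn2 fell in cKo hearts and was the only one of the 23 past the threshold, where 12.0% of all tested genes were called and 6.26% were called lower. That call compares 3 cKo hearts with 2 FF hearts, and Hcn2 passed the filter through the FF hearts, since its mean was 0.968 FPKM in cKo and 2.26 FPKM in FF hearts. The median log2 difference of the 23 genes was 0.03, with 13 positive and 10 negative, against 0.01 over all tested genes. Values of the groups did not overlap at 3 of the 23, Hcn2, Kcne1 and Kcna4, while 28.0% of all tested genes had groups that did not overlap. Without FF replicate 3 this held for 8 of the 23, with 52.0% of all tested genes as background. Both shares of the channel genes were below those of all tested genes.

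How far apart the groups could lie is bounded by the intervals. Differences were taken on log2(FPKM + 1), so a difference of 1 is a 2-fold change of FPKM + 1. For genes near 1 FPKM it is a larger fold change of FPKM itself, and the bounds given here are on FPKM + 1. With all libraries the 95% interval of 17 of the 23 genes lay within 1 log2 unit of 0, and without FF replicate 3 that of 22, Kcne4 being the exception. For 11 genes it then lay within 0.5. A test that misses the threshold does not show that the groups are alike, and intervals with all 6 libraries had a median width of 0.96.

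**Figure D1:**
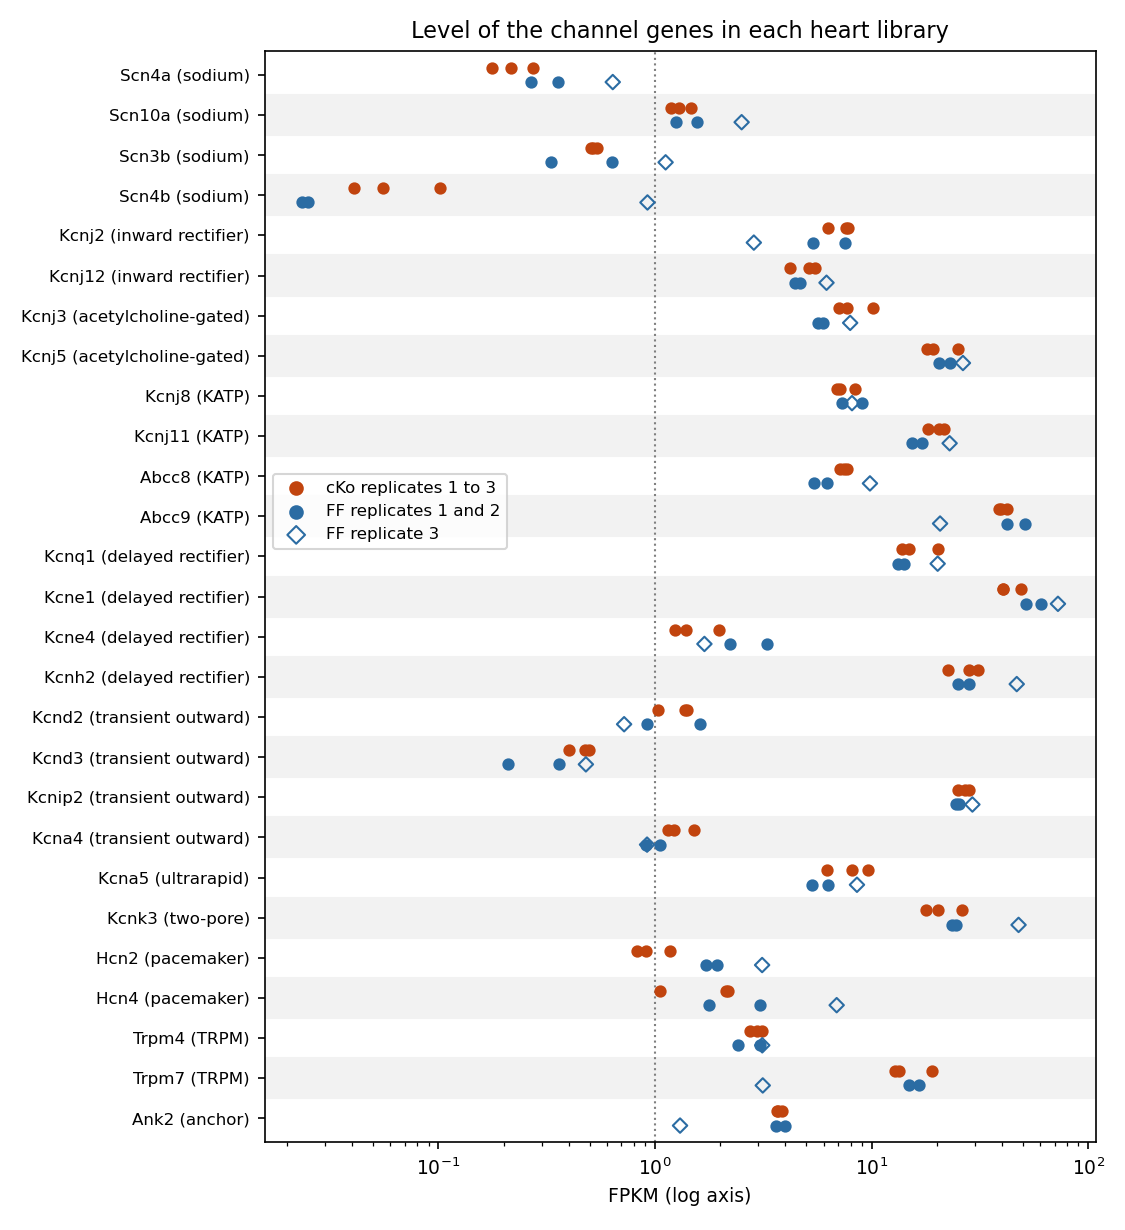
FPKM of the 27 genes (log axis) in each library, with cKo replicates above and FF replicates below on each row, FF replicate 3 as an open diamond and the filter of 1 FPKM as a dotted line. Kcne1 stands highest, at 40.4 to 48.8 FPKM in cKo and 51.9 to 72.5 FPKM in FF hearts, and the open diamond is the highest of the 6 values for 14 genes and the lowest for 5.

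The pacemaker pair Hcn2 and Hcn4 showed the lowest values in cKo hearts relative to FF hearts among the tested genes when all libraries were used. Their promoters and that of Kcne4 are shown as those of the 3 genes with the lowest log2 differences among the tested genes with a RefSeq window, and that of Kcna4 because its cKo values all lay above its FF values. Kcne1 and Kcnk3, whose differences lay between those of Hcn2 and Kcne4, had no entry in the table used here. RefSeq windows on GRCm38.p6, from 250 bases before to 50 after the start, were found for 20 of the 27 genes. Capitals mark CG dinucleotides, which cluster in CpG island promoters.
Hcn2 (chr10:79716384-79716683, plus strand): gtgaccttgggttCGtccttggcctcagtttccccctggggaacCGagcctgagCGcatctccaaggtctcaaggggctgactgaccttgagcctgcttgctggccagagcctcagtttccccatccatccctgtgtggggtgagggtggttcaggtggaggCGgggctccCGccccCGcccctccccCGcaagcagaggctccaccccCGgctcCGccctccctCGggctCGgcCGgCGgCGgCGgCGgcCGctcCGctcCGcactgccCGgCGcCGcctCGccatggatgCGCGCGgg
Hcn4 (chr9:58822699-58822998, plus strand): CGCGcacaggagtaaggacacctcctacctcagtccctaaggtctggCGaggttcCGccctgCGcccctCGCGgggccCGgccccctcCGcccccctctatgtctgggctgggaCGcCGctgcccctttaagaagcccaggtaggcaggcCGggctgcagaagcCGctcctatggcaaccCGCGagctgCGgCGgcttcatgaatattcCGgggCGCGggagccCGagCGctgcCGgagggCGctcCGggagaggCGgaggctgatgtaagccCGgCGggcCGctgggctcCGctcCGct
Kcne4 (chr1:78816661-78816960, plus strand): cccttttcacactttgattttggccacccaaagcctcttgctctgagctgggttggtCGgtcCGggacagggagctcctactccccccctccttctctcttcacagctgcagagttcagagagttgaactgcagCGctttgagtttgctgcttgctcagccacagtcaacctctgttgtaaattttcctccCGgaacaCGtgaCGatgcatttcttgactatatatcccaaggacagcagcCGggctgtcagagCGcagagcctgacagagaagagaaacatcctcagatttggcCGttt
Kcna4 (chr2:107290339-107290638, plus strand): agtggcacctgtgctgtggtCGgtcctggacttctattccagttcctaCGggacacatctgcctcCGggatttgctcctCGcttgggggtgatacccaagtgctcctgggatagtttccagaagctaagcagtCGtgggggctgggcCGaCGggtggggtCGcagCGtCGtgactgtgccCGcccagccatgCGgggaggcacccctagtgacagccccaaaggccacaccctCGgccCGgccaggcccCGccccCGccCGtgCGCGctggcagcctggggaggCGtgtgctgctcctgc
The windows of Hcn2 and Hcn4 hold 26 and 31 CG dinucleotides, and 16.9% and 10.6% of the 32851 RefSeq windows hold at least as many. Kcna4, whose level was higher in all cKo libraries, has 20, and 26.5% of windows reach that. Kcne4 has 9, and 45.8% of windows hold at least as many. The letters GGGCGG, searched on both strands as the GC box, occur 3 times for Hcn2, 2 times for Hcn4, 3 times for Kcna4 and 0 times for Kcne4, and 35.7% of all windows hold them. The sequence TATAAA, searched on both strands, is absent from these 4 windows and present in 13.6% of all. Such matches are descriptions of the letters and show no binding.

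Hcn2 (ENSMUSG00000020331, chromosome 10, 79552468 to 79571942, plus strand, coordinates as in the deposited table) encodes a pacemaker channel subunit found in working and conducting heart cells and in neurons. It had 0.824, 1.17 and 0.908 FPKM in cKo hearts, against 1.72, 1.94 and 3.12 FPKM in FF hearts. Every cKo library lay below every FF library, and the mean of the cKo hearts was 0.428 times that of all FF hearts and 0.529 times that of FF replicates 1 and 2. With all libraries the log2 difference was -0.71 (SE 0.20, 95% interval -1.18 to -0.24, limma adjusted p = 0.149), and without FF replicate 3 it was -0.53 (SE 0.13, interval -0.83 to -0.22, adjusted p = 0.0475). Leaving out each library in turn kept the sign 6 times of 6, with differences of -0.83 to -0.53. The gene is thinly read, with 52 to 74 reads in cKo and 94 to 191 reads in FF libraries. An exact Poisson interval, which covers counting error only, ran from 0.920 to 1.47 FPKM for the highest cKo library and from 1.39 to 2.11 FPKM for the lowest FF library. Markers of neurons, which also express Hcn2, were lower in cKo hearts as well. Their sum over 9 markers was 1.76 to 2.20 FPKM, against 2.99 to 4.46 FPKM in FF hearts, with Th and Chrna3 under 0.1 FPKM in every library. The part of neurons in the Hcn2 difference was not tested.

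Hcn4 (ENSMUSG00000032338, chromosome 9, 58730695 to 58770458, plus strand), the main pacemaker channel of the sinoatrial node and widespread in the embryonic heart, was at 1.06, 2.17 and 2.13 FPKM in cKo hearts, against 1.78, 3.06 and 6.90 FPKM in FF hearts. The groups overlapped, because FF replicate 1 lay below cKo replicates 2 and 3. Its log2 difference of -0.71 (SE 0.39, limma adjusted p = 0.403) shrank to -0.30 (SE 0.25, adjusted p = 0.438) without FF replicate 3, which held 2.85 times the mean of the other FF hearts. Markers of the sinoatrial node, 8 in all, summed to 24.5 to 30.6 FPKM in cKo and 21.0 to 29.6 FPKM in FF hearts, ranges that overlap. Among them Isl1 had at most 0.221 FPKM in any library and Shox2 at most 1.24 FPKM. Taken singly, Tbx18 was higher in all cKo libraries (8.45 to 11.1 FPKM in cKo and 2.04 to 5.79 FPKM in FF hearts). Smoc2 was lower in all of them (3.02 to 3.92 FPKM in cKo and 5.08 to 7.29 FPKM in FF hearts), and the remaining markers overlapped. The part of these markers in the Hcn4 values was not tested. Hcn4 stood above Hcn2 in all 6 libraries, by 1.25, 1.78 and 2.21 times in cKo hearts and by 1.03, 1.55 and 2.17 times in FF hearts, which is a ratio of FPKM + 0.1. That ratio did not separate the groups.

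**Figure D2:**
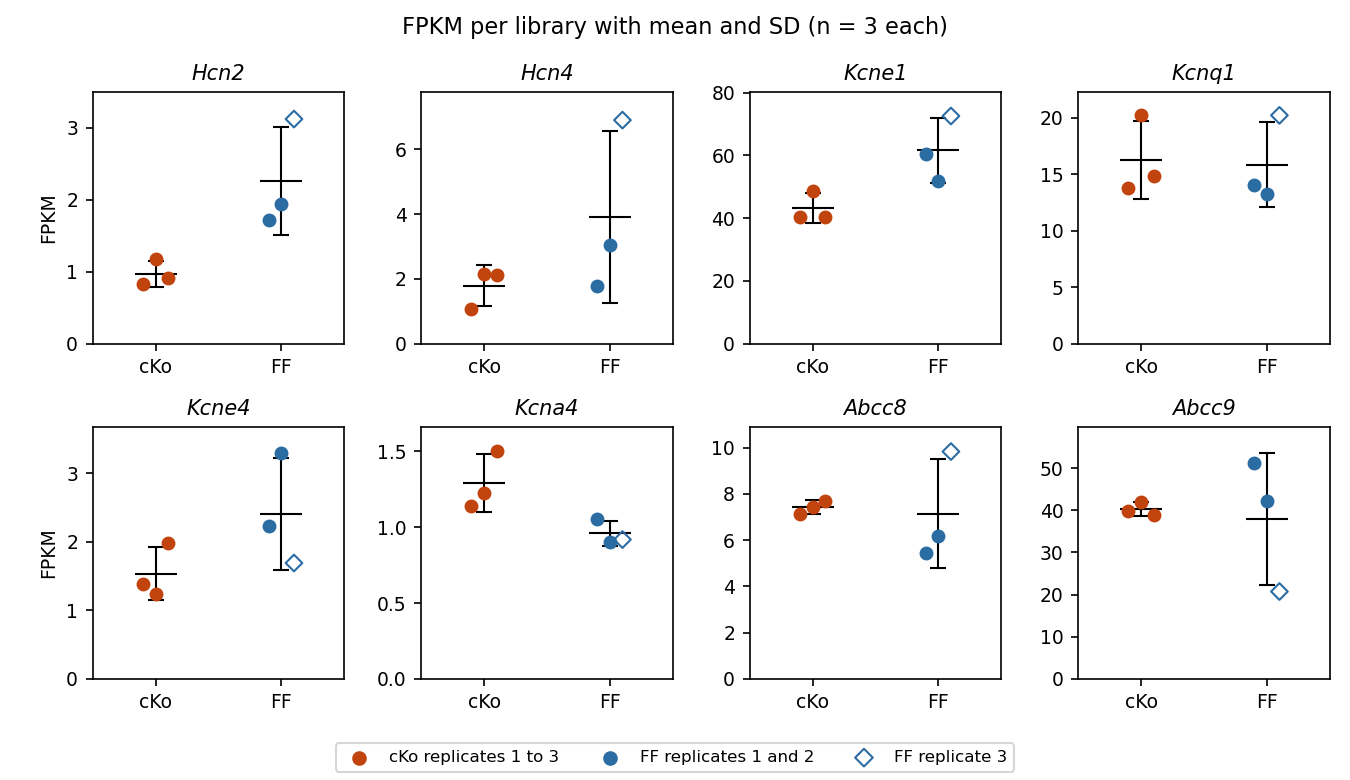
FPKM of 8 channel genes on linear axes from 0, with cKo on the left and FF on the right of each panel, the mean as a bar and the SD as whiskers (n = 3 each). The groups are apart for Hcn2, Kcne1 and Kcna4, while FF replicate 3 (open diamond) is far from the other FF hearts for Hcn4, Abcc8 and Abcc9.

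Delayed rectifiers end the action potential. Kcne1 (ENSMUSG00000039639, chromosome 16, 92142870 to 92156356, minus strand) encodes minK, the small subunit that slows the channel formed by Kcnq1. It had 40.4, 48.8 and 40.4 FPKM in cKo hearts, against 60.6, 51.9 and 72.5 FPKM in FF hearts, the highest level of the 27 genes. All cKo values lay below all FF values, with cKo replicate 2 and FF replicate 2 close to each other. Its log2 difference was -0.50 (SE 0.16, interval -0.89 to -0.11, limma adjusted p = 0.193), and -0.37 (SE 0.12, interval -0.67 to -0.08, adjusted p = 0.0919) without FF replicate 3. The sign stayed negative whichever library was left out, with differences of -0.61 to -0.37. The sum over 6 ventricular markers was also apart, at 3406 to 4223 FPKM in cKo and 4713 to 6271 FPKM in FF hearts. Myl2 and Myl3 made up most of it. Taken singly, only 1 of the 6, Myl2, was lower in all cKo than in all FF libraries. Hey2 went the other way (21.6 to 26.5 FPKM in cKo and 7.63 to 13.5 FPKM in FF hearts), and the remaining markers overlapped. Whether these markers share in the Kcne1 difference was not tested.

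Kcnq1 (ENSMUSG00000009545, chromosome 7, 142660099 to 142980779, plus strand), the pore subunit of the slow delayed rectifier, had 13.8, 20.2 and 14.8 FPKM in cKo hearts, against 14.1, 13.3 and 20.2 FPKM in FF hearts. The groups overlapped throughout, and the log2 difference was 0.04 (SE 0.21, limma adjusted p = 0.937), or 0.22 (SE 0.16, adjusted p = 0.384) without FF replicate 3. Set against its partner, Kcnq1 was 0.343, 0.415 and 0.369 times the level of Kcne1 in cKo hearts and 0.233, 0.257 and 0.279 times in FF hearts. All cKo ratios lay above all FF ratios, and FF replicate 3, which departs for single genes, stood beside the other FF hearts in this ratio. The mean log2 ratio was -1.42 ± 0.14 in cKo and -1.97 ± 0.13 in FF hearts (SD, n = 3 each), a difference of 0.55, or 0.61 without FF replicate 3. The antisense transcript Kcnq1ot1 lies within Kcnq1 and had at most 0.226 FPKM in any library. Of the 12 genes overlapping Kcnq1, 1 had a mean of at least 1 FPKM, Gm37235, on the same strand. Its part in the Kcnq1 values was not tested.

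Kcne4 (ENSMUSG00000047330, chromosome 1, 78794475 to 78797745, plus strand), a subunit that damps several potassium channels when expressed in cells, had 1.39, 1.24 and 1.98 FPKM in cKo hearts, against 2.23, 3.29 and 1.69 FPKM in FF hearts. FF replicate 3 lay within the cKo range, and the other FF hearts lay above it. The log2 difference was -0.41 (SE 0.22, limma adjusted p = 0.383) with all libraries and -0.57 (SE 0.18, adjusted p = 0.0882) without FF replicate 3. Kcnh2, the ERG channel of the rapid delayed rectifier, was at 22.5, 31.1 and 28.0 FPKM in cKo hearts, against 25.2, 28.3 and 46.8 FPKM in FF hearts. Its log2 difference of -0.25 (SE 0.25) became 0.02 (SE 0.15) without FF replicate 3.

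**Figure D3:**
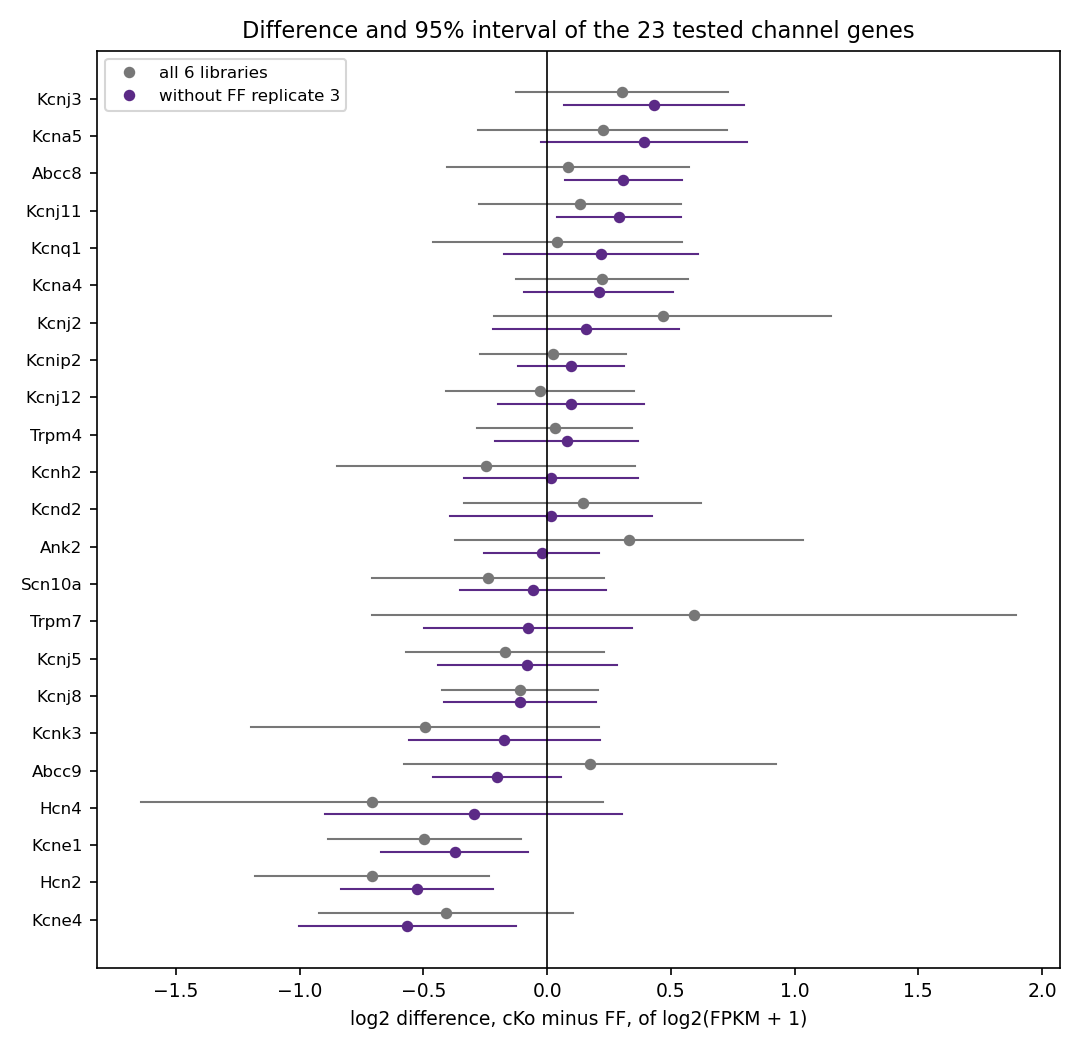
Log2 difference (cKo minus FF, of log2(FPKM + 1)) of the 23 tested genes with its 95% interval, from all 6 libraries in grey and without FF replicate 3 in purple. Hcn2 and Kcne1 lie below 0 with their whole interval in both fits, and the grey interval of Trpm7 is the widest, at 2.60 log2 units.

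KATP channels, which open when ATP runs low, are built from a Kir6 pore and a sulphonylurea receptor, and their genes lie in pairs on chromosomes 7 and 6. The pair on chromosome 7 is Kcnj11 (45743377 to 45750188), the Kir6.2 pore of heart muscle, and Abcc8 (45753947 to 45829457), the receptor SUR1. Kcnj11 had 18.3, 21.6 and 20.5 FPKM in cKo hearts, against 17.1, 15.4 and 22.9 FPKM in FF hearts. Abcc8 had 7.12, 7.45 and 7.70 FPKM in cKo hearts, against 5.42, 6.20 and 9.83 FPKM in FF hearts. For both genes the cKo hearts lay above FF replicates 1 and 2 and below FF replicate 3. Without that library the log2 differences were 0.29 (SE 0.10, limma adjusted p = 0.111) for Kcnj11 and 0.31 (SE 0.10, adjusted p = 0.0846) for Abcc8, and with it 0.13 and 0.08.

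The pair on chromosome 6 is Kcnj8 (142510563 to 142517340), the Kir6.1 pore prominent in pericytes and smooth muscle, and Abcc9 (142533588 to 142648041), the receptor SUR2. Abcc9 had 39.8, 42.0 and 38.9 FPKM in cKo hearts, against 51.1, 42.2 and 20.7 FPKM in FF hearts. The cKo values lay under those of FF replicates 1 and 2, with cKo replicate 2 close to FF replicate 2, and above FF replicate 3. Kcnj8 had 6.96, 7.13 and 8.39 FPKM in cKo hearts, against 9.06, 7.31 and 8.12 FPKM in FF hearts, with a log2 difference of -0.11 both with and without FF replicate 3 (SE 0.13 each, limma adjusted p = 0.711 and 0.577). Abcc9 had a log2 difference of 0.17 (SE 0.32) with all libraries and of -0.20 (SE 0.11, adjusted p = 0.234) without FF replicate 3. Markers of pericytes and smooth muscle summed over 10 genes to 464 to 576 FPKM in cKo and 429 to 541 FPKM in FF hearts, ranges that overlap. Most of that sum was Acta2, at 346 to 446 FPKM in cKo and 260 to 412 FPKM in FF hearts. Rgs5 had 65.9, 66.5 and 64.5 FPKM in cKo hearts, against 109, 101 and 34.8 FPKM in FF hearts. Pdgfrb had 15.9, 24.6 and 21.3 FPKM in cKo hearts, against 17.6, 18.8 and 32.6 FPKM in FF hearts. Of the 10 markers, 0 were higher and 0 lower in all cKo libraries. Their part in the Abcc9 values was not tested. Relative to Abcc9, Abcc8 stood at 0.181, 0.179 and 0.200 in cKo hearts, against 0.108, 0.149 and 0.477 in FF hearts, so the ratio separated the groups only when FF replicate 3 was left out.

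Inward rectifiers hold the resting potential, and neither gene passed the test. Kcnj2, which encodes Kir2.1, had 7.81, 7.63 and 6.29 FPKM in cKo hearts, against 7.52, 5.38 and 2.86 FPKM in FF hearts. The log2 difference of 0.47 (SE 0.29, limma adjusted p = 0.449) came down to 0.16 (SE 0.16) without FF replicate 3, the lowest of the 6 libraries. Kcnj12, for Kir2.2, was at 4.22, 5.48 and 5.13 FPKM in cKo hearts, against 4.41, 4.66 and 6.19 FPKM in FF hearts, with a log2 difference of -0.03 (SE 0.16), or 0.10 (SE 0.12) without FF replicate 3.

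Channels gated by acetylcholine, which slow the heart under vagal tone, pair Kcnj3 (GIRK1) with Kcnj5 (GIRK4) and are richest in atria. Kcnj3 had 7.69, 7.08 and 10.1 FPKM in cKo hearts, against 5.99, 5.67 and 7.96 FPKM in FF hearts. Kcnj5 had 18.0, 19.1 and 25.0 FPKM in cKo hearts, against 20.5, 22.9 and 26.4 FPKM in FF hearts. Each overlapped between the groups with all libraries, and the log2 difference of Kcnj5 was -0.17 (SE 0.17), or -0.08 (SE 0.15) without FF replicate 3. Kcnj3 was 0.432, 0.374 and 0.408 times the level of Kcnj5 in cKo hearts, against 0.295, 0.250 and 0.304 times in FF hearts, and here the groups did not overlap. The mean log2 ratio was -1.31 ± 0.10 in cKo and -1.83 ± 0.15 in FF hearts (SD, n = 3 each). Of the 11 partner pairs compared, this one and that of Kcnq1 with Kcne1 were the only ones with groups apart in all 6 libraries. Ratios were described without a test, and the share of other gene pairs with groups apart was not computed. Of all single tested genes, 28.0% had groups that did not overlap. Kcnj3 alone had a log2 difference of 0.30 (SE 0.18, limma adjusted p = 0.439), or 0.43 (SE 0.15, adjusted p = 0.103) without FF replicate 3. The sums of atrial markers given above also ran lower in FF replicates 1 and 2 than in cKo replicates 1 and 3. That of cKo replicate 2 (584 FPKM) lay below that of FF replicate 2 (631 FPKM). FF replicate 3 had the highest sum (1886 FPKM). The part of atrial markers in the Kcnj3 values was not tested.

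**Figure D4:**
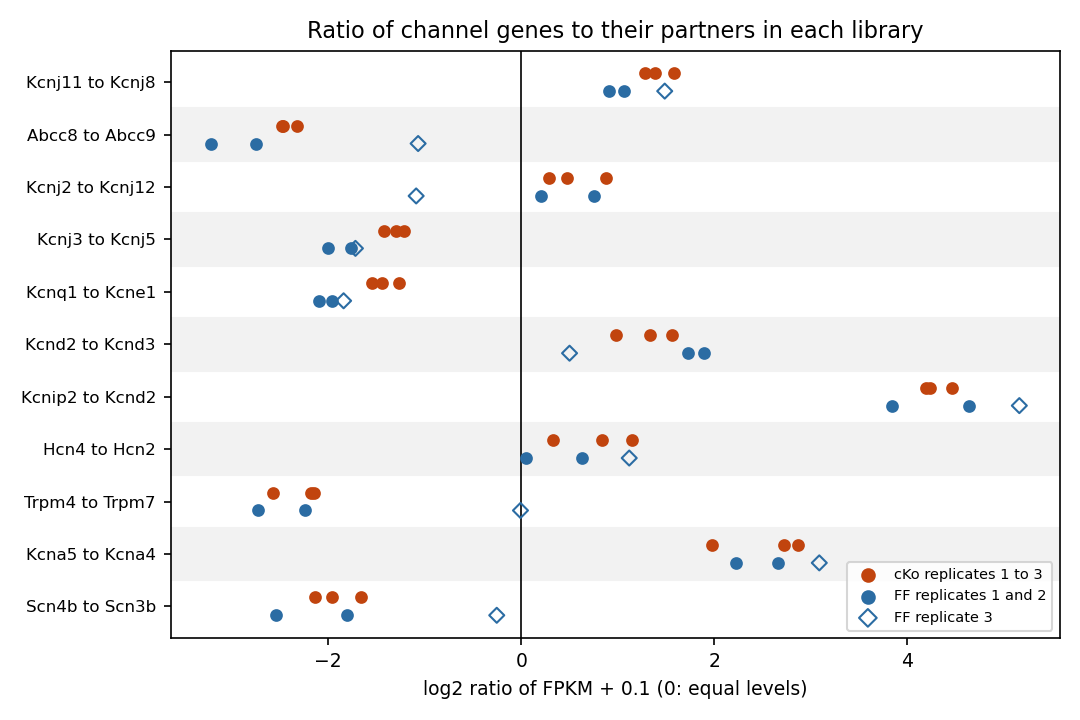
Log2 ratio of 11 pairs of channel genes in each library (FPKM + 0.1), with cKo replicates above and FF replicates below on each row and FF replicate 3 as an open diamond. The ratios of Kcnj3 to Kcnj5 and of Kcnq1 to Kcne1 are higher in all cKo than in all FF hearts, by means of 0.52 and 0.55.

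Wide spreads were seen for Kcna5 and Kcnk3. Kcna5, whose Kv1.5 channel carries the ultrarapid current, had 8.10, 9.58 and 6.23 FPKM in cKo hearts, against 5.28, 6.27 and 8.56 FPKM in FF hearts (log2 difference 0.22, SE 0.21, or 0.39, SE 0.17, without FF replicate 3). Kcnk3, the background channel TASK1, had 17.8, 20.3 and 26.3 FPKM in cKo hearts, against 23.6, 24.4 and 47.7 FPKM in FF hearts (log2 difference -0.49, SE 0.29, or -0.17, SE 0.16, without FF replicate 3). Neither passed the test in limma, with adjusted p = 0.625 for Kcna5 and 0.439 for Kcnk3, or 0.169 and 0.482 without FF replicate 3.

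Transient outward channels, which give the early notch of repolarization, were low apart from their auxiliary subunit. Kcnip2, the calcium-binding KChIP2 that brings Kv4 channels to the membrane, had 24.9 to 28.2 FPKM in cKo hearts, against 24.5 to 29.2 FPKM in FF hearts, and its log2 difference of 0.02 had the narrow interval of -0.27 to 0.32, and without FF replicate 3 it was 0.10 (SE 0.09). The pore gene Kcnd2 (Kv4.2) was at 1.38, 1.40 and 1.04 FPKM in cKo hearts, against 1.61, 0.922 and 0.720 FPKM in FF hearts. The groups overlapped, with a log2 difference of 0.14 (SE 0.20), or 0.02 (SE 0.17) without FF replicate 3. Kcnip2 stood 18.3, 18.8 and 22.0 times above Kcnd2 in cKo hearts, against 14.3, 24.8 and 35.7 times in FF hearts. Kcnd3 (Kv4.3), below the filter, had 0.401 to 0.496 FPKM in cKo and 0.209 to 0.480 FPKM in FF hearts, from 32 to 99 reads.

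Kcna4 (ENSMUSG00000042604, chromosome 2, 107120984 to 107128847, plus strand), the pore of the slow transient outward current, was higher in every cKo library than in every FF library. It passed the filter through the cKo hearts, with a mean of 1.29 FPKM in cKo and 0.960 FPKM in FF hearts. It had 1.14, 1.22 and 1.51 FPKM in cKo hearts, against 1.05, 0.906 and 0.919 FPKM in FF hearts. FF replicate 3 stood with the other FF hearts here. The log2 difference was 0.22 (SE 0.15, limma adjusted p = 0.479), and 0.21 (SE 0.12, adjusted p = 0.286) without FF replicate 3. It rests on 109 to 158 reads per cKo library and 70 to 87 reads per FF library.

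Sodium channel genes of the set were low at this age, and FF replicate 3 was the highest library for all 4. Scn10a, known best as a channel of sensory neurons, had 1.30, 1.18 and 1.47 FPKM in cKo hearts, against 1.57, 1.26 and 2.51 FPKM in FF hearts (log2 difference -0.24, SE 0.20, limma adjusted p = 0.576, or -0.06, SE 0.12, adjusted p = 0.775, without FF replicate 3). The other 3 were below the filter. Scn4a, the pore gene of skeletal muscle, had 0.177 to 0.273 FPKM in cKo and 0.266 to 0.638 FPKM in FF hearts, and Scn3b, a beta subunit, 0.506 to 0.537 FPKM in cKo and 0.332 to 1.12 FPKM in FF hearts. Scn4b, the other beta subunit, had 0.0407, 0.102 and 0.0555 FPKM in cKo hearts, against 0.0235, 0.0251 and 0.923 FPKM in FF hearts. In FF replicate 3 it had 88 reads, against 2 in each of the other FF hearts and 4 to 10 in cKo hearts, so the FF libraries differ far more among themselves than the groups do without it. In that same library the 10 markers of skeletal muscle summed to 5.15 FPKM, against 1.63 to 2.69 FPKM in the other 5.

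Trpm4, a calcium-activated cation channel, Trpm7, a channel joined to a kinase, and Ank2, the ankyrin that anchors ion transporters, complete the set. Trpm4 had 3.13, 2.75 and 2.94 FPKM in cKo hearts, against 2.42, 3.06 and 3.13 FPKM in FF hearts, with a log2 difference of 0.03 (SE 0.13), or 0.08 (SE 0.12) without FF replicate 3. Trpm7 had 19.1, 12.8 and 13.3 FPKM in cKo hearts, against 16.6, 14.9 and 3.14 FPKM in FF hearts. Ank2 had 3.66, 3.86 and 3.68 FPKM in cKo hearts, against 3.99, 3.63 and 1.30 FPKM in FF hearts. For Trpm7 and Ank2 the groups overlapped, and FF replicate 3 was far below the other 5 libraries. Their log2 differences were 0.59 (SE 0.55) and 0.33 (SE 0.29) with it and -0.08 (SE 0.17) and -0.02 (SE 0.10) without it. The Ank2 interval without it, -0.26 to 0.21, was among the narrowest.

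FF replicate 3 departed from the other libraries along the base composition of these genes. GC content of the longest transcript, read from GENCODE M21 by gene identifier, ran from 40.1% for Trpm7 to 65.4% for Hcn2. Across the 27 genes, which here share 1 library and so are not independent, the deviation of FF replicate 3 from the mean of the other 5 libraries had a Pearson r of 0.77 and a Spearman rho of 0.74 with GC content. All 10 genes with a GC content of at least 55% were higher in FF replicate 3 than in both other FF hearts, as were 78.0% of all such tested genes. Of the 5 genes under 45%, 3 were lower there, against 83.0% of all such tested genes. Trpm7, Kcnj2, Abcc9 and Ank2 had deviations of -1.96, -1.03, -1.01 and -1.05, and Hcn4, Kcnk3, Hcn2 and Kcnh2 of 1.41, 1.07, 0.86 and 0.78. Being highest or lowest of the 6 libraries was as common in FF replicate 3 among all tested genes, at 67.9%, as among the 27, at 70.4%. When a smooth trend with GC content was removed from each library, an alternative chosen after seeing the data, Hcn2 stood at -0.54 (SE 0.12, limma adjusted p = 0.0609) and Kcne1 at -0.44 (SE 0.12, adjusted p = 0.0879).

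**Figure D5:**
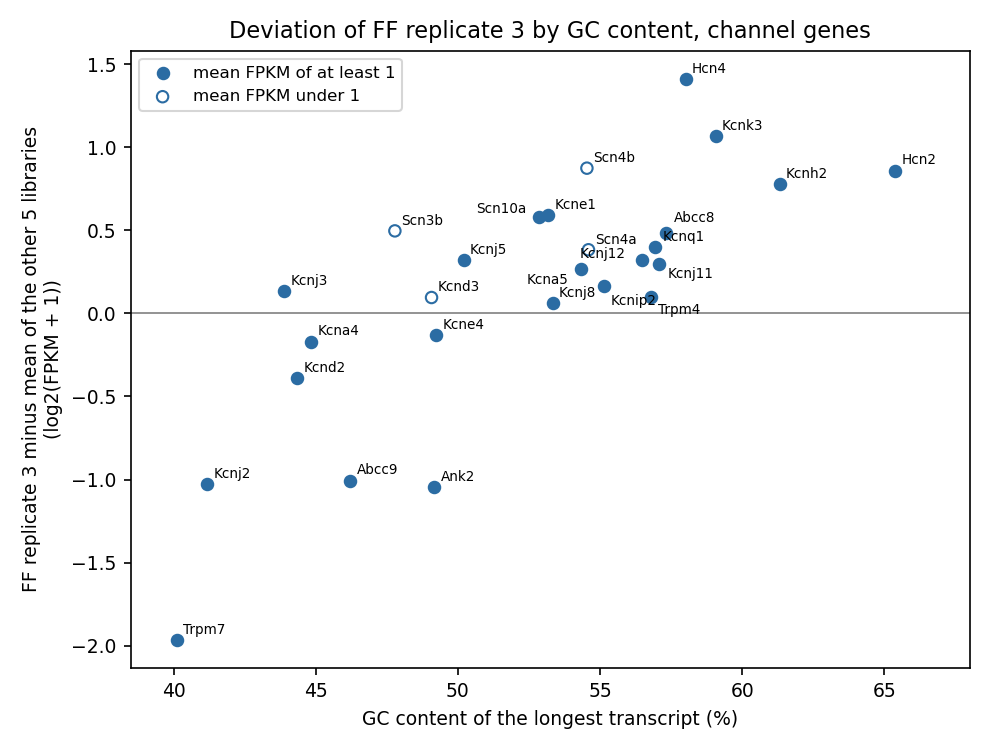
Deviation of FF replicate 3 from the mean of the other 5 libraries (log2(FPKM + 1)) against the GC content of the longest transcript for the 27 channel genes, with genes under 1 FPKM as open circles. The deviation runs from -1.96 at 40.1% GC (Trpm7) to 1.41 at 58.0% (Hcn4).

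A wider list of other channel subunits, anchors and regulators of the heart was tested in the same fit. Among its 79 genes with values, 24 were tested, and 0 passed with all libraries (limma, adjusted p of 0.05), with 3 at an unadjusted p under 0.05. Over all tested genes 0.166% passed and 17.9% had an unadjusted p under 0.05. Without FF replicate 3, where 5.73% of all tested genes were called higher, 1 of the 24 rose, Ank3, the ankyrin-G that gathers sodium channels, with a log2 difference of 0.53 (SE 0.11, limma adjusted p = 0.0361). With all libraries Ank3 had a log2 difference of 0.58 (SE 0.13, limma adjusted p = 0.103) and missed the threshold. It had 2.44, 2.95 and 2.74 FPKM in cKo hearts, against 1.60, 1.53 and 1.29 FPKM in FF hearts, and every cKo library lay above every FF library.

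The count of calls depended on how the libraries were weighted. When limma estimated a weight for each library, 6 of the 23 genes passed, against 33.9% of all tested genes. Kcnj3, Kcnj11 and Abcc8 were then higher in cKo and Kcne1, Kcne4 and Hcn2 lower, with adjusted p from 0.00554 for Hcn2 to 0.0469 for Abcc8. The weights were 0.0860 for FF replicate 3 and 5.69 for FF replicate 2, so FF replicate 2 counted for most in the FF group.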

How the data were processed

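Total RNA of 3 cKo and 3 FF newborn mouse hearts was prepared by miRNeasy micro kit, and the labels' protocols name Ovation Ultralow V2 for the libraries. The authors deposited 1 table of FPKM values with gene lengths and coordinates. FastQC, TopHat2 2.0.13, Subread, featureCounts and edgeR are named in the submitters' processing notes, as are the builds GRCh38, mm10 and GRCm39, without roles. No source used here says whether counting used strand. FPKM values were multiplied by gene length and divided by a step fitted to each library. Every value under 200 reads then came within 0.1 of a whole number. These whole numbers were taken as the read counts, and they gave the library totals of 15658893 to 20339926. The library size behind the FPKM values was 0.960 (FF replicate 1) to 1.07 (cKo replicate 3) times that total.

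Values were tested as log2(FPKM + 1) with limma 3.58.1 in R 4.3.3 (empirical Bayes with a trend, 2 groups, no block) over the 12678 genes with a mean of at least 1 FPKM, and p-values were adjusted by Benjamini-Hochberg over all of them, with a threshold of 0.05. Differences on this scale understate the change of low genes. The fit was also run on simulated data, whose changed genes had means of at least 2 FPKM, so that run does not cover lower genes. Its outcome is not reported here. The genes described and all gene and marker lists were chosen with earlier results of these data known. Alternatives were other pseudocounts, filters, scalings and variance priors, library weights, a replicate block, each library left out and, chosen after seeing the data, a correction for GC content. Deviations of same-numbered samples from their group means correlated at 0.38, -0.24 and 0.24, so the numbers were not taken to pair samples. Exact Poisson intervals cover counting error only, and reads without molecular identifiers are not independent molecules.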

Additional observations from a re-analysis of the deposited data

How the results depend on the processing

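Over all tested genes 21 passed the threshold in limma. The count was 11 with a pseudocount of 0.1, 0 with no filter (3210 at an unadjusted p under 0.05), 53 among genes of at least 5 FPKM, 59 after quantile normalization, 34 after rescaling without mitochondrial genes, 13 with a robust variance prior, 13 without a trend, 4300 with library weights, 535 with the GC correction, and 0 to 1520 when 1 library was left out. The replicate block gave 2 genes and 0 of the channel genes, and as the numbers do not pair the samples it is given here only. Of the 23 channel genes 0 passed, against 6 with library weights and 0 to 1 when 1 library was left out. Of the wider list 0 passed, against 8 with library weights, 1 with the GC correction and 0 to 1 when 1 library was left out. With library weights the sign turned for Scn10a (0.0236), Kcnj12 (0.0896), Kcnj8 (0.0260), Abcc9 (-0.0956), Trpm4 (-0.0181) and Trpm7 (-0.0484), with the GC correction for Kcnj12 (0.0515), and with quantile normalization for Trpm4 (-0.00516). When 1 library was left out, log2 differences ran between -0.11 and 0.0967 for Kcnj12, -0.0684 and 0.31 for Abcc8, -0.20 and 0.43 for Abcc9, -0.12 and 0.22 for Kcnq1, -0.42 and 0.0158 for Kcnh2, -0.0263 and 0.0970 for Kcnip2, -0.0562 and 0.0786 for Trpm4, -0.0770 and 0.96 for Trpm7, and -0.0227 and 0.53 for Ank2. For these results the cause was not tested. The sign held in every alternative run for 12 of the 23 genes. Depth limits Scn4a, Scn3b, Scn4b and Kcnd3 most.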
